A study of Mus musculus with 10 samples.

Results

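The extracellular matrix, integrin and protease genes of mouse embryonic stem cells without isoforms of Mbd3 are described here across 4 mutant lines. They were chosen by gene symbol: laminins, collagens, nidogens, perlecan (Hspg2), Fraser complex genes, integrins, fibronectin, fibrillins, fibulins, tenascin C, thrombospondins, Sparc, emilins, the ADAM, ADAMTS and MMP proteases, TIMP inhibitors, and the Lox and Plod enzymes. The neighbouring genes Col4a1 and Col4a2 were left out. Of 8694 genes listed in at least 1 of the 4 deposited tables, 77 met this rule. The deposited tables are lists of genes the authors called in a comparison, so a gene not listed in a table has no value there, and all 77 were called in at least 1 table because of how the tables were made. They include 76 of the 202 protein-coding RefSeq genes whose symbols match the rule (37.6%). Of the 77, 3 match by letters only, namely Col4a3bp, Itgb1bp2 and Itgb3bp, and are described apart.

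The cells were of the E14 line, an embryonic stem cell line, grown on plates coated with gelatin, which is itself denatured collagen. CRISPR/Cas9 mutations lay in exon 2 of Mbd3 in Mbd3ab KO, in intron 2 in Mbd3c KO, in exon 5 in Mbd3abc KO and in exon 2 in Mbd3cΔN-ab KO, whose genotype label gives a deltaN change of isoform c with loss of a and b. Mbd3 is a subunit of NuRD, a complex with nucleosome remodelling and histone deacetylase activities. Mutants were compared with the unmutated E14 line (WT). Strand-specific libraries were made from total RNA depleted of ribosomal RNA, 2 biological replicates per group. The file headers name the libraries of a mutant differently but do not say whether they are different clones, and p-values measure the spread between these libraries. All 4 mutants were set against the same 2 WT libraries. In bulk RNA, fewer cells of a kind and less RNA per cell cannot be told apart.

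Cells rest on a basement membrane, a sheet in which laminin trimers and type IV collagen are joined by nidogens and perlecan. Integrins, pairs of an α and a β subunit, hold cells to it and to interstitial matrix such as fibronectin. In epithelia a laminin with α3 and β3 chains binds the integrin of α6 and β4 in hemidesmosomes, and transmembrane collagen XVII and the anchoring fibrils of collagen VII secure the junction. A laminin made of α1, β1 and γ1 chains is the main one of the early embryo. ADAM proteases shed proteins from the cell surface, ADAMTS proteases and MMPs cut matrix, and TIMPs inhibit MMPs.

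RefSeq promoter windows (GRCm38.p6, 250 bases before to 50 after a gene's start) matched 53 of the 77 genes. The windows of 4 genes on which the results turn are given 5′ to 3′ on the gene's strand, 2 from genes that were higher in mutants and 2 from genes that were lower, so that their sequence can be read beside the values. Capitals mark matches, on either strand, to the AP-1 site TGANTCA, the GC box GGGCGG, the TATA box TATAAA and the E-box CANNTG. Lamb3 lies at chr1:193301993-193302292 on the plus strand, Col17a1 at chr19:47691993-47692292 on the minus strand, Frem2 at chr3:53657306-53657605 on the minus strand and Adam19 at chr11:46055734-46056033 on the plus strand.
Lamb3: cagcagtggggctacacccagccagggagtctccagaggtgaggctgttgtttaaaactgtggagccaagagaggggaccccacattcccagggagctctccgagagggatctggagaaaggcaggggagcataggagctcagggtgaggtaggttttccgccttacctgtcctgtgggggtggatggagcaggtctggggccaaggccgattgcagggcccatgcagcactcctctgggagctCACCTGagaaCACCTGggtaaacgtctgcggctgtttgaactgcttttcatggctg
Col17a1: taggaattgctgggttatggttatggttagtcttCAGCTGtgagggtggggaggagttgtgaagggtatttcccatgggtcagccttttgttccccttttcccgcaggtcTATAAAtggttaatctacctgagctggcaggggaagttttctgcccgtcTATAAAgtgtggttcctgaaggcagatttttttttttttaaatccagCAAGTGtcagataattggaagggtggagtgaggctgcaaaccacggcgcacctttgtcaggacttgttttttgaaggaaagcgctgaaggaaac
Frem2: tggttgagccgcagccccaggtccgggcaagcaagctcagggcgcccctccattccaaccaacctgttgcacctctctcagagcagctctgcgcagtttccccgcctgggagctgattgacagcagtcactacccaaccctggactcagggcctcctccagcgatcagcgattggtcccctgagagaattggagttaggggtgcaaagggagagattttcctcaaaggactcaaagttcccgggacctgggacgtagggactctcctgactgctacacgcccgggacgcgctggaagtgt
Adam19: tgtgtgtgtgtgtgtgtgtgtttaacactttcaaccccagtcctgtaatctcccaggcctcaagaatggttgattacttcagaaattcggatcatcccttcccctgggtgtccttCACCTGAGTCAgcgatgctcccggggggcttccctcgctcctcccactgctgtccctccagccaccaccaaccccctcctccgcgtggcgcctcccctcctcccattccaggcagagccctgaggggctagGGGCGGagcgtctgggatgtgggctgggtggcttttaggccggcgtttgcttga
The Lamb3 window held 2 E-boxes. It is set on the start of the transcript listed in Mbd3cΔN-ab KO and lies inside the longer transcript listed in the other 3 tables, so for these it is not the promoter. Col17a1 held 2 TATA boxes and 2 E-boxes. Frem2 held no match to any of the 4 motifs. Adam19 held a GC box next to the start and, farther upstream, an AP-1 site that overlapped an E-box. A GC box was present in 36 of the 53 windows (67.9%), against 35.7% of all 32851 RefSeq windows. All RefSeq windows include genes not called here, and no share over the windows of called genes was taken. A difference from all windows therefore need not be particular to these genes. An AP-1 site was present in 2 (3.77%), against 7.81% of all windows, a TATA box in 5 (9.43%), against 13.6%, and an E-box in 34 (64.2%), against 72.3%. The windows of 46 genes lie within 50 bases of a listed transcript start, but those of Adamts9 and Itga9 lie far from it, and 1 of the 2 AP-1 sites is in the window of Itga9. A match says only that these letters are in the window.

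With the authors' threshold of 0.05 on the adjusted p, 14 of the 77 genes were called in Mbd3ab KO, 10 higher and 4 lower, in a table that called 3.35% of the genes tested (2.05% higher and 1.3% lower). In Mbd3c KO only Lamb3 was called, and it was higher, where 0.353% of genes tested were called (0.316% higher and 0.0372% lower). In Mbd3abc KO 71 were called, 30 higher and 41 lower, where 52.1% of genes tested were called (27.1% higher and 24.9% lower). In Mbd3cΔN-ab KO 53 were called, 22 higher and 31 lower, where 41.5% of genes tested were called (21.1% higher and 20.4% lower). Since a gene had to be called somewhere to be listed, the counts of members are read for direction and size and not against these shares. The higher share of called members was 71.4% in Mbd3ab KO, against 61.3% of all called genes, 42.3% in Mbd3abc KO, against 52.1%, and 41.5% in Mbd3cΔN-ab KO, against 50.9%. The excess in Mbd3ab KO did not hold among genes above the median level. There 1 member was higher and 3 lower, against 46.2% higher over all called genes above that level. An edgeR refit with TMM called 0 members higher and 2 lower, and 32 of all listed genes. TMM was computed over the listed genes alone, most of which were higher, and moved their median log2 fold change by -0.33. It therefore cannot decide whether the excess holds. The median deposited log2 fold change of the called members was -0.68 in Mbd3abc KO, against 0.46 over all called genes, and -0.70 in Mbd3cΔN-ab KO, against 0.37. Genes not called have no value, so values around 0 are lacking and a median takes the side with more called genes. A small change in the higher share can thus move a median far, and these gaps do not measure a common shift. No called gene of any table had mutant and WT libraries that overlapped. With each library of a table left out in turn in a DESeq2 refit, fewer of the 139 member calls held in all 4 refits than in none. Those of Lama1, Lamb1, Lamc1, Fbln1 and Frem2, all lower, held in all 4 in both Mbd3abc KO and Mbd3cΔN-ab KO. So did those of Adam10, Itgav and Plod2, all higher.

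Lamb3 was called in all 4 tables. Of the others, 10 were called in 3 tables, 39 in 2 and 27 in 1. All 10 called in 3 tables were called in Mbd3ab KO, Mbd3abc KO and Mbd3cΔN-ab KO: Adam8, Adamts7, Col17a1, Col7a1, Col9a3 and Fbln2 were higher in each, and Adam19, Adamts3, Frem2 and Lamb1 lower in each. These comparisons share the WT libraries, so a common direction is not separate evidence. Col5a3, a minor fibrillar collagen, was called in Mbd3ab KO alone, with 170 and 224 normalized reads in the mutant, against 85.0 and 89.3 in WT. No member was called in opposite directions in 2 tables.

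**Figure D1:**
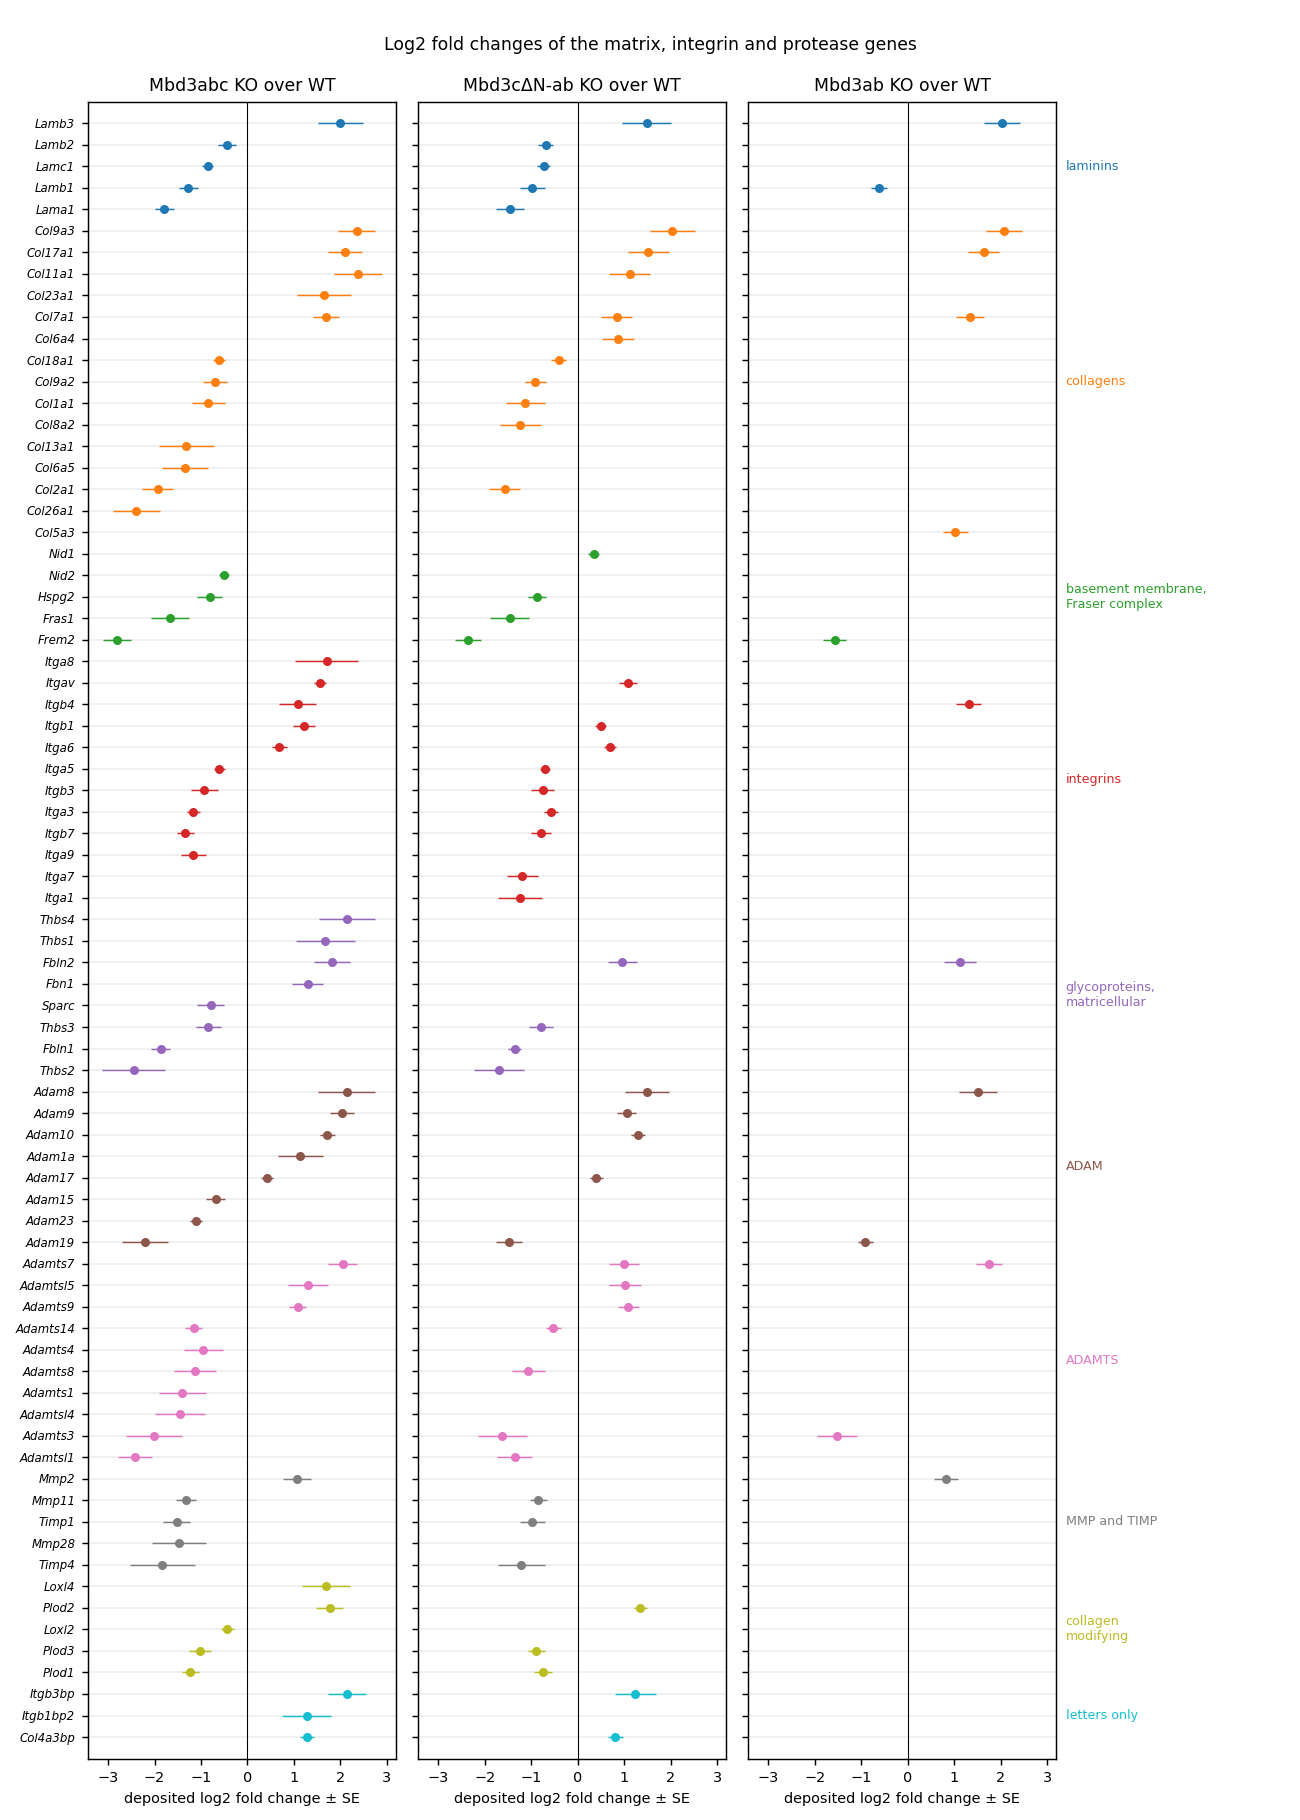
Deposited log2 fold change (x axis, ± SE) of each member described (rows, grouped and coloured by role) in Mbd3abc KO, Mbd3cΔN-ab KO and Mbd3ab KO over WT, 2 libraries per group. A missing point means that the gene was not called in that table. Each role holds points on both sides of 0 in Mbd3abc KO except the basement membrane and Fraser complex genes, all 4 of which were lower, and the 3 genes matched by letters, which were higher.

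Among the laminins, the β3 chain of epithelial anchoring rose while the chains of the embryonic laminin fell. Lamb3 had 174 and 81.3 normalized reads in Mbd3ab KO, against 13.3 and 20.6 in WT. In Mbd3c KO it had 85.4 and 116, against 10.9 and 16.8 in WT of that table. It had 133 and 65.8 in Mbd3abc KO, against 15.4 and 23.7, and 174 and 33.0 in Mbd3cΔN-ab KO, against 14.7 and 22.6. Every mutant library lay above both WT libraries, but the Mbd3cΔN-ab KO libraries stood far apart. The folds were 7.55, 7.29, 5.10 and 5.57 in that order of mutants. In Mbd3c KO the size depended on the refit, with a log2 fold change of 0.58 with edgeR and TMM, against 1.92 as deposited. A DESeq2 refit with the authors' size factors gave 2.52. Neither refit called Lamb3. Both used only the 38 listed genes, 34 of them higher, and TMM moved the median log2 fold change of these by -2.21. Without the first Mbd3cΔN-ab KO library the fold there was 1.77, and without the first Mbd3ab KO or Mbd3abc KO library it was 4.81 or 3.37. By DESeq2, the log2 fold changes of Lamb3 in the authors' deposited table were 2.02 ± 0.39 (SE) in Mbd3ab KO, 1.92 ± 0.42 in Mbd3c KO, 2.00 ± 0.49 in Mbd3abc KO and 1.49 ± 0.53 in Mbd3cΔN-ab KO, with adjusted p = 3.83e-05, 0.00310, 0.000126 and 0.0142. In DESeq2 refits that left out 1 of the 4 libraries of a table in turn, the call held in 1, 1, 3 and 1 of 4. The Mbd3cΔN-ab KO table lists a transcript of Lamb3 that starts at position 193302243, and the other 3 tables a longer one that starts at 193301994. Lama3, the α3 chain that joins it in a trimer, was listed in no table.

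The embryonic chains were lower in both of the mutants with many called genes. Lama1 had 821 and 1062 normalized reads in Mbd3abc KO, against 3580 and 3125 in WT, a 3.56-fold fall. In Mbd3cΔN-ab KO it had 765 and 1359, against 3398 and 2987, a 3.01-fold fall. Both mutants' libraries lay well under those of WT. Lamb1, the β1 chain, fell 2.46-fold in Mbd3abc KO, 2.07-fold in Mbd3cΔN-ab KO and 1.57-fold in Mbd3ab KO, where it had 1759 and 1656 normalized reads, against 2781 and 2567 in WT. Lamc1, the γ1 chain, fell 1.81-fold and 1.67-fold in Mbd3abc KO and Mbd3cΔN-ab KO, and Lamb2, the β2 chain, 1.37-fold and 1.63-fold. By DESeq2, the log2 fold change of Lama1 in the authors' deposited table was -1.79 ± 0.20 (SE) in Mbd3abc KO and -1.45 ± 0.30 in Mbd3cΔN-ab KO, with adjusted p = 1.54e-17 and 8.72e-06.

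Per kb of transcript, the embryonic chains stayed the more abundant. In Mbd3abc KO Lamc1 averaged 592 normalized reads per kb, against 1073 in WT, Lamb1 219, against 539, and Lama1 99.6, against 355. Lamb3 averaged 24.7, against 4.85 in WT.

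**Figure D2:**
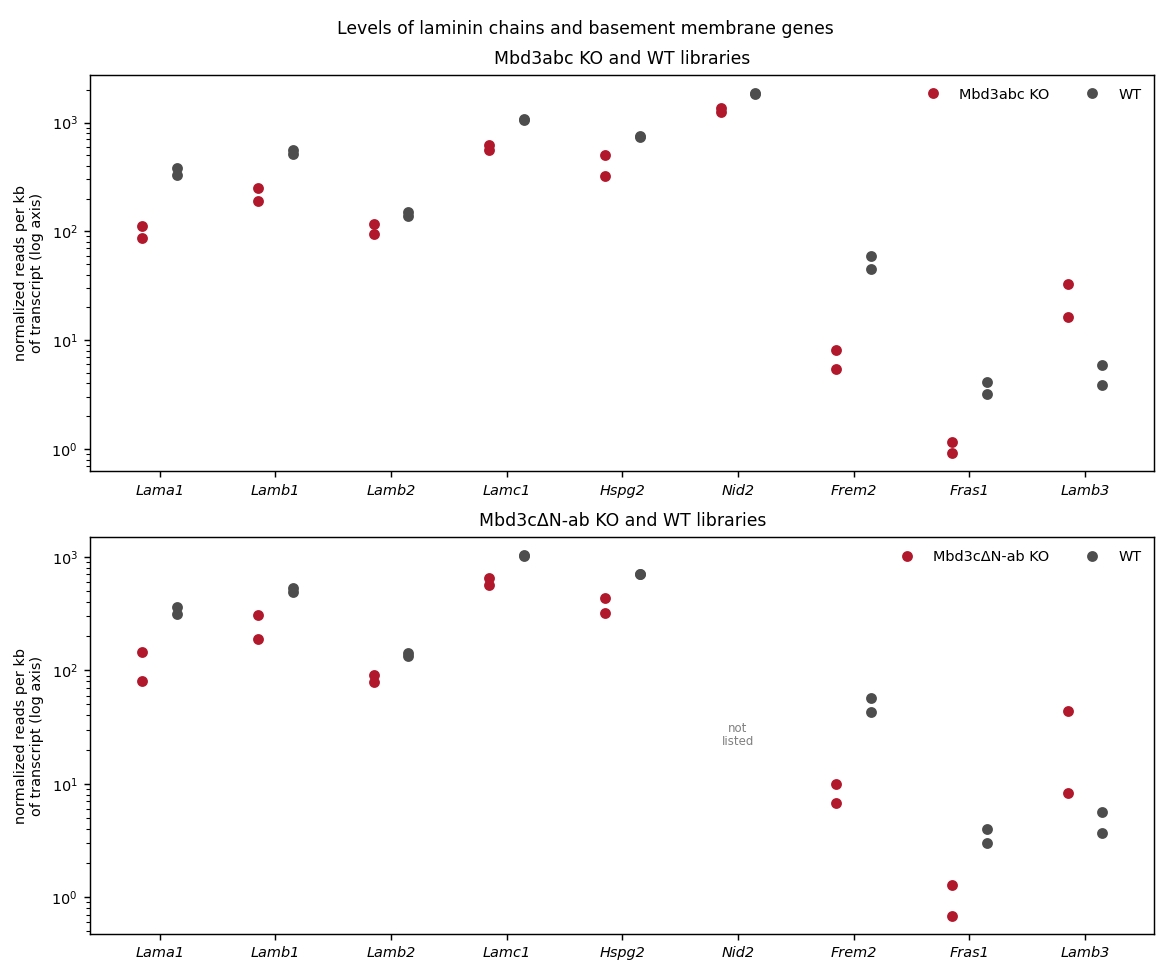
Normalized reads per kb of transcript (log axis) of laminin chains, perlecan, nidogen 2 and Fraser complex genes in each Mbd3abc KO (upper) or Mbd3cΔN-ab KO (lower) library and in each WT library of the same table, 2 points per group. Lamb3 lies above WT in the mutants, and the other genes shown lie below it, where they are listed.

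The genes around this laminin also included called members. Itgb4, the β4 integrin subunit, had 529 and 354 normalized reads in Mbd3ab KO, against 171 and 146 in WT, a 2.78-fold rise. In Mbd3abc KO it had 568 and 270, against 199.5 and 168, a 2.28-fold rise that was 1.47-fold without the first mutant library. The authors' deposited table gives DESeq2 log2 fold changes of 1.31 ± 0.27 (SE) and 1.08 ± 0.40 for Itgb4, with adjusted p = 0.000248 and 0.0156. The call of Itgb4 held in 2 of the 4 leave-one-out refits of each table, and Itgb4 was not listed in Mbd3cΔN-ab KO or Mbd3c KO. Itga6, its α6 partner, which also pairs with β1, had 3425 and 2801 in Mbd3abc KO, against 1950 and 1886, a 1.62-fold rise. The Mbd3cΔN-ab KO libraries had 3184 and 2815, against 1851 and 1802, a 1.64-fold rise.

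Col17a1, the transmembrane collagen of hemidesmosomes, rose in 3 mutants. It had 155 and 107 normalized reads in Mbd3ab KO, against 27.6 and 36.1 in WT (4.11-fold). It had 219 and 139 in Mbd3abc KO, against 32.2 and 41.6 (4.86-fold), and 188 and 79.6 in Mbd3cΔN-ab KO, against 30.5 and 39.8 (3.80-fold). Without the first Mbd3cΔN-ab KO library that last fold was 2.26. Col7a1, the collagen of anchoring fibrils, was 2.93-fold higher in Mbd3ab KO, 3.37-fold in Mbd3abc KO and 1.92-fold in Mbd3cΔN-ab KO. All mutant libraries of both genes lay above all WT libraries of their table. In the authors' deposited table the DESeq2 adjusted p of Col17a1 was 0.000177 in Mbd3ab KO, 6.47e-08 in Mbd3abc KO and 0.00182 in Mbd3cΔN-ab KO. With 1 library left out in turn, the calls of both genes held in all 4 refits in Mbd3abc KO, while in Mbd3ab KO and Mbd3cΔN-ab KO that of Col17a1 held in 1 and 2 of 4 and that of Col7a1 in none.

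**Figure D3:**
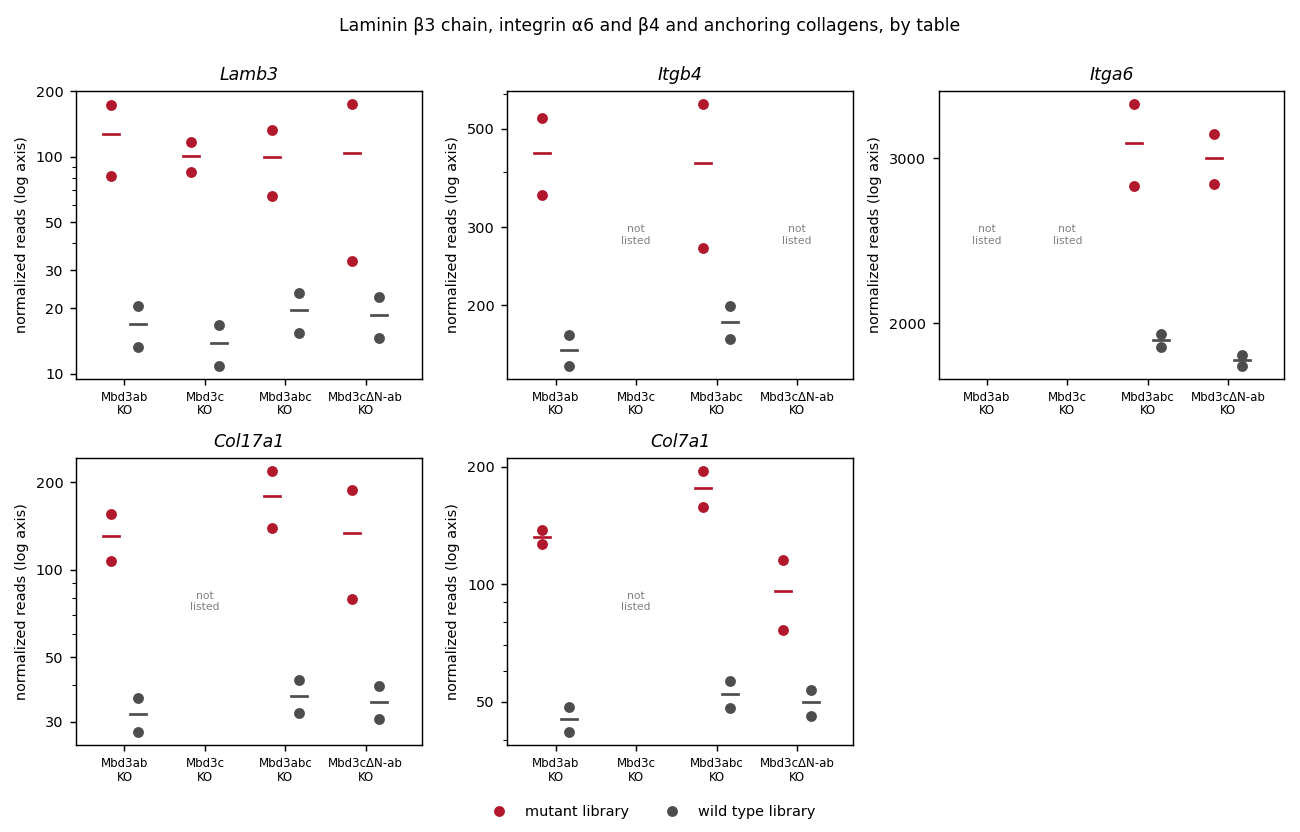
Normalized reads (log axis) of Lamb3, Itgb4, Itga6, Col17a1 and Col7a1 in each mutant library and in the 2 WT libraries of the same table, with bars at the group means. Each mutant library lies above both WT libraries wherever the gene is listed, and the spread between the 2 mutant libraries is widest for Lamb3 in Mbd3cΔN-ab KO, at 174 and 33.0.

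A list of 9 other hemidesmosome and laminin receptor genes moved both ways. Of all genes tested, 3.35% were called in Mbd3ab KO, 0.353% in Mbd3c KO, 52.1% in Mbd3abc KO and 41.5% in Mbd3cΔN-ab KO. Counts of this list and of the later ones stand beside these shares. In Mbd3ab KO 2 were called, both higher: Bcam, a laminin receptor of the immunoglobulin family, at 1.58-fold, and Sdc4, a heparan sulfate proteoglycan of the cell surface, at 2.64-fold. In Mbd3abc KO 2 were higher and 3 lower. Sdc4 rose 2.71-fold and Plec, the plectin that links hemidesmosomes to keratin filaments, fell, with 2371 and 2748 normalized reads against 7946 and 7407 in WT. In Mbd3cΔN-ab KO 1 was higher and 3 lower, with Sdc4 2.33-fold higher, Plec 2.40-fold lower and the tetraspanin Cd151 1.34-fold lower. Without the first Mbd3cΔN-ab KO library the fold of Sdc4 was 1.29. Bcam was 1.25-fold lower in Mbd3cΔN-ab KO.

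The Fraser complex genes Frem2 and Fras1 were called lower. Frem2, which with Fras1 forms a complex under embryonic epithelia, had 161 and 173 normalized reads in Mbd3ab KO, against 474 and 636 in WT, a 3.32-fold fall. In Mbd3abc KO it had 66.7 and 99.2, against 552 and 732, a 7.74-fold fall. In Mbd3cΔN-ab KO it had 84.2 and 124, against 524 and 700, a 5.89-fold fall. The highest mutant library of each table lay far below its lowest WT library. The authors' deposited table gives DESeq2 log2 fold changes of -1.58 ± 0.25 (SE), -2.81 ± 0.30 and -2.37 ± 0.28, with adjusted p = 6.77e-08, 5.81e-20 and 1.37e-15.

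Fras1 had low levels, 14.5 and 18.1 normalized reads in Mbd3abc KO, against 50.2 and 65.2 in WT. It had 10.8 and 20.3 in Mbd3cΔN-ab KO, against 47.6 and 62.4, so that it was 3.54-fold and 3.53-fold lower. With 1 library left out its call held in 0 and 1 of 4 refits. Hspg2, which encodes perlecan, fell 1.80-fold in Mbd3abc KO, to 7097 and 4582 normalized reads, against 10512 and 10455 in WT. It fell 1.87-fold in Mbd3cΔN-ab KO. The nidogens, which tie laminin to type IV collagen, were each called once: Nid2 fell 1.42-fold in Mbd3abc KO, and Nid1 rose 1.28-fold in Mbd3cΔN-ab KO.

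With the anchoring collagens counted in, 5 of 12 called collagens were higher and 7 lower in Mbd3abc KO, and 5 of 10 were higher and 5 lower in Mbd3cΔN-ab KO. In Mbd3ab KO all 4 called collagens were higher. Col9a3, a chain of collagen IX of cartilage, had 198 and 81.3 normalized reads in Mbd3ab KO, against 16.6 and 18.4 in WT (7.97-fold). It rose 6.03-fold in Mbd3abc KO and 7.39-fold in Mbd3cΔN-ab KO, where the libraries had 220 and 65.2. Without the first mutant library the fold was 4.65 in Mbd3ab KO and 3.38 in Mbd3cΔN-ab KO. Its partner chain Col9a2 moved the other way, and was 1.66-fold lower in Mbd3abc KO and 1.95-fold lower in Mbd3cΔN-ab KO.

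Col11a1, a minor chain of cartilage fibrils, had 344 and 123 normalized reads in Mbd3abc KO, against 25.7 and 38.3 in WT (7.29-fold, and 3.84-fold without the first mutant library). In Mbd3cΔN-ab KO it was 2.69-fold higher, and 1.75-fold without the first. Col2a1, the main collagen of cartilage, had 26.1 and 21.0 in Mbd3abc KO, against 103 and 93.0 (4.16-fold lower), and was 3.35-fold lower in Mbd3cΔN-ab KO. Col26a1 had 11.6 and 5.72 in Mbd3abc KO, against 75.9 and 48.1 (7.16-fold lower, and 10.8-fold without the first mutant library). Col8a2, a short-chain collagen, was 3.03-fold lower in Mbd3cΔN-ab KO, and 4.71-fold without the second mutant library. Col18a1, a basement membrane collagen with the highest level per kb among the collagens described, fell 1.53-fold in Mbd3abc KO and 1.34-fold in Mbd3cΔN-ab KO. It averaged 898 normalized reads per kb in Mbd3abc KO, against 1378 in WT, and 982 in Mbd3cΔN-ab KO, against 1313.

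The enzymes that modify collagen split as well. Plod2, a lysyl hydroxylase that acts on collagen telopeptides, had 1346 and 849 normalized reads in Mbd3abc KO, against 301 and 308 in WT (3.60-fold higher). The Mbd3cΔN-ab KO libraries had 776 and 725, against 285 and 293 (2.60-fold higher). Its relatives Plod1 and Plod3 fell, 2.38-fold and 2.08-fold in Mbd3abc KO and 1.71-fold and 1.88-fold in Mbd3cΔN-ab KO. The lysyl oxidase Loxl4 rose 4.12-fold in Mbd3abc KO, where Loxl2 fell 1.36-fold. Loxl4 was low, with 57.0 and 30.5 normalized reads there, against 9.01 and 12.2 in WT, and rose 2.87-fold without the first mutant library. The calls of Loxl4 and Loxl2 held in none of the leave-one-out refits. Of 17 other genes of collagen folding and processing, 10 were called in Mbd3abc KO, 3 higher and 7 lower. In Mbd3cΔN-ab KO 8 were called, 3 higher and 5 lower. Over all genes tested, 52.1% and 41.5% were called in these mutants. None of the list was listed in Mbd3ab KO or Mbd3c KO. Pcolce, an enhancer of procollagen C-proteinase, fell most in both, 3.65-fold and 2.37-fold. Mia3, needed to export procollagen from the endoplasmic reticulum, rose most in Mbd3abc KO, at 1.83-fold, and Pcolce2 in Mbd3cΔN-ab KO, at 1.65-fold.

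Among the integrins, 5 of 10 called in Mbd3abc KO were higher and 5 lower, and 3 of 9 in Mbd3cΔN-ab KO were higher and 6 lower. Itgav, the α subunit of vitronectin receptors, had 1086 and 1130 normalized reads in Mbd3abc KO, against 371 and 372 in WT (2.99-fold). In Mbd3cΔN-ab KO it had 853 and 684, against 352 and 355 (2.17-fold). Its libraries were close within each group except for those of Mbd3cΔN-ab KO. Itgb1, the most widely shared β subunit, rose 2.39-fold in Mbd3abc KO and 1.42-fold in Mbd3cΔN-ab KO. Itga8, a partner of β1, had 21.3 and 21.0 normalized reads in Mbd3abc KO, against 0 and 5.71 in WT, near the limit of detection.

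The integrin genes that fell included receptors for laminin and fibronectin. Itga3, a laminin receptor subunit, fell 2.25-fold in Mbd3abc KO, to 334 and 307 normalized reads, against 709 and 737 in WT. Itga5, of the fibronectin receptor, fell 1.53-fold. Itgb7, known from lymphocyte homing, had 367 and 395 in Mbd3abc KO, against 1076 and 887 (2.58-fold lower), and Itga9 fell 2.32-fold. In Mbd3cΔN-ab KO Itga3, Itga5 and Itgb7 fell 1.51-fold, 1.64-fold and 1.77-fold, and Itgb3, a partner of αv, fell 1.75-fold. Itga7, a laminin receptor subunit, was 2.57-fold lower in Mbd3cΔN-ab KO, and Itga1, a collagen receptor subunit, 3.33-fold lower, or 2.21-fold without the first and 6.75-fold without the second mutant library. Per kb of transcript, the mean levels in Mbd3abc KO ran from 763 for Itgb1, against 320 in WT, and 520 for Itga6, against 320, down to 3.67 for Itga8, against 0.496.

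Of 24 genes of focal adhesions, which couple integrins to actin, 3 were called in Mbd3ab KO, 2 higher and 1 lower. There were 9 higher and 6 lower in Mbd3abc KO, and 6 higher and 3 lower in Mbd3cΔN-ab KO. Over all genes tested, 3.35%, 52.1% and 41.5% were called in these 3 mutants. Tensin genes split in all 3: Tns1 rose 2.24-fold, 1.36-fold and 1.78-fold in Mbd3ab KO, Mbd3abc KO and Mbd3cΔN-ab KO, and Tns3 fell 1.67-fold, 2.06-fold and 2.13-fold. Lims2, an adaptor of integrin-linked kinase, had 37.7 and 32.4 normalized reads in Mbd3abc KO, against 6.44 and 2.45 in WT, and rose most of the list there and in Mbd3cΔN-ab KO. Tln2, a talin that binds integrin tails, fell most in Mbd3abc KO, 3.15-fold.

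Among glycoproteins of the matrix, 4 of 8 called were higher in Mbd3abc KO, and 1 of 4 for Mbd3cΔN-ab KO. Fbln2, fibulin 2, was higher in 3 mutants: it had 93.1 and 145 normalized reads in Mbd3ab KO, against 34.2 and 52.4 in WT (2.74-fold). It rose 3.98-fold in Mbd3abc KO and 2.12-fold in Mbd3cΔN-ab KO. The call of Fbln2 held in all leave-one-out refits of Mbd3abc KO, but in none of those of Mbd3ab KO or Mbd3cΔN-ab KO. Fbln1, fibulin 1, moved the other way, with 235 and 313 in Mbd3abc KO, against 1050 and 1004 (3.75-fold lower). The Mbd3cΔN-ab KO libraries had 397 and 357, against 997 and 960 (2.60-fold lower). The thrombospondins split in Mbd3abc KO: Thbs4 rose 7.44-fold from low levels, and 4.54-fold without the first mutant library, and Thbs3 fell 1.84-fold. Thbs1, an activator of latent TGF-β, had 156 and 32.4 in Mbd3abc KO, against 23.2 and 13.9 (5.08-fold, and 1.75-fold without the first mutant library). Thbs2 had at most 1.20 normalized reads in any mutant library of either table, against up to 14.7 in WT, and no fold is given. Fbn1, fibrillin 1, rose 2.62-fold and Sparc fell 1.77-fold in Mbd3abc KO.

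Of 27 proteoglycan and other matrix genes, 1 was called in Mbd3ab KO, the chondroitin sulfate proteoglycan Vcan, which fell 2.07-fold. There were 4 higher and 6 lower in Mbd3abc KO, and 1 higher and 5 lower in Mbd3cΔN-ab KO. Over all genes tested, 52.1% and 41.5% were called in the last 2 mutants. Npnt, nephronectin, a ligand of integrin α8β1, had 102 and 99.2 normalized reads in Mbd3abc KO, against 12.9 and 21.2 in WT, a 5.92-fold rise, and was 3.01-fold higher in Mbd3cΔN-ab KO. The glypican Gpc3 fell 3.57-fold in Mbd3abc KO and Gpc1 fell 2.24-fold in Mbd3cΔN-ab KO, the most of the list in each.

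Most called ADAM genes were higher, 5 of 8 in Mbd3abc KO, and 4 of 5 for Mbd3cΔN-ab KO, but Adam19 fell in 3 mutants. Adam19, a sheddase of neuregulin, had 1328 and 1421 normalized reads in Mbd3ab KO, against 2642 and 2655 in WT (1.93-fold lower). In Mbd3abc KO it had 238 and 787, against 3080 and 3055 (5.99-fold lower, with 3.90-fold and 12.9-fold without the first and the second mutant library). In Mbd3cΔN-ab KO it had 710 and 1220, against 2924 and 2920 (3.03-fold lower). The WT libraries were nearly equal, and the mutant libraries of Mbd3abc KO were the farthest apart. The authors' deposited table gives DESeq2 log2 fold changes of -0.91 ± 0.16 (SE), -2.20 ± 0.49 and -1.48 ± 0.28, with adjusted p = 5.48e-06, 3.07e-05 and 1.80e-06. The calls held in 2, 2 and 4 of the 4 refits without 1 library.

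Adam10, the sheddase of Notch and cadherins, had 1056 and 901 normalized reads in Mbd3abc KO, against 291 and 293 in WT (3.35-fold). The Mbd3cΔN-ab KO libraries had 716 and 676, against 276 and 280 (2.50-fold). Adam9 rose 4.33-fold and 2.15-fold in these mutants, and Adam17, the sheddase of TNF, 1.35-fold and 1.33-fold. Adam8 had 49.0 and 36.1 normalized reads in Mbd3ab KO, against 4.42 and 9.92 in WT, where it was low. It was 5.94-fold higher in Mbd3ab KO, 7.68-fold in Mbd3abc KO and 4.38-fold in Mbd3cΔN-ab KO. Without the second WT library these folds were 9.64, 12.3 and 7.08, and without the first mutant library of Mbd3abc KO 3.80. The call of Adam8 held in none of the leave-one-out refits of Mbd3ab KO or Mbd3cΔN-ab KO, and in some of those of Mbd3abc KO. Adam23, which lacks protease activity, fell 2.18-fold in Mbd3abc KO.

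Among the ADAMTS genes 3 were higher and 7 lower in Mbd3abc KO, and 3 higher and 4 lower in Mbd3cΔN-ab KO. Adamts7, known to cut cartilage oligomeric matrix protein, had 263 and 200 normalized reads in Mbd3ab KO, against 58.5 and 58.8 in WT (3.95-fold). It rose 4.49-fold in Mbd3abc KO and 2.18-fold in Mbd3cΔN-ab KO. Adamts9, a protease of versican and aggrecan, rose 2.14-fold and 2.20-fold in these 2. Both procollagen N-proteinases listed were lower. Adamts3 had 0.816 and 4.52 normalized reads in Mbd3ab KO, against 24.3 and 34.0 in WT, too few in the mutant for a fold. It was 6.41-fold lower in Mbd3abc KO and 6.65-fold lower in Mbd3cΔN-ab KO, with 1.93 and 8.59 and then 1.20 and 8.47 normalized reads. Without the first mutant library these falls were 3.93-fold and 3.80-fold, and without the second 17.5-fold and 26.7-fold. Adamts14 fell 2.27-fold in Mbd3abc KO and 1.45-fold in Mbd3cΔN-ab KO. Of the ADAMTS-like genes, whose products have no protease domain, Adamtsl1 had 16.4 and 12.4 in Mbd3abc KO, against 96.5 and 82.4 (6.21-fold lower), while Adamtsl5 rose 2.75-fold.

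MMPs and their inhibitors were mostly lower. Mmp2, gelatinase A, was the exception, with 229 and 288 normalized reads in Mbd3ab KO, against 124 and 148 in WT (1.90-fold), and a 2.19-fold rise in Mbd3abc KO. Mmp11, stromelysin 3, fell 2.56-fold in Mbd3abc KO and 1.84-fold in Mbd3cΔN-ab KO. Timp1 had 39.6 and 32.4 in Mbd3abc KO, against 109 and 108 (3.01-fold lower), and was 2.08-fold lower in Mbd3cΔN-ab KO. Timp4 was at 0 in all 4 libraries of both mutants, against 3.86 and 9.79 normalized reads in WT of the Mbd3abc KO table, which makes it at least 4.74-fold lower in Mbd3abc KO and at least 4.37-fold lower in Mbd3cΔN-ab KO, with a floor of 3 reads over the 2 libraries. WT had only 3 and 12 reads, and without the second WT library the bounds were 2.68 and 2.46. The call of Timp4 held in none of the 4 leave-one-out refits of either table, and the floor covers counting error only.

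Of 21 serine proteases, cathepsins and their inhibitors, 4 were higher and 1 lower in Mbd3ab KO. There were 6 and 3 in Mbd3abc KO, and 7 and 3 in Mbd3cΔN-ab KO. Over all genes tested, 3.35%, 52.1% and 41.5% were called in that order of mutants. Htra1, a secreted serine protease, rose 3.14-fold in Mbd3ab KO, with 734 and 632 normalized reads against 225 and 210 in WT. It was 4.15-fold higher in Mbd3abc KO and 2.50-fold higher in Mbd3cΔN-ab KO. The cathepsin gene Ctsh rose most of the list in Mbd3abc KO and Mbd3cΔN-ab KO, with 84.1 and 73.5 normalized reads in Mbd3abc KO, against 1.29 and 1.63 in WT. No gene of the lists outside the 77 that concern matrix, adhesion or proteases was called in Mbd3c KO, where 0.353% of genes tested were.

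The 3 genes matched by letters only do not encode matrix proteins or integrins. Col4a3bp, a ceramide transfer protein, rose 2.45-fold in Mbd3abc KO and 1.77-fold in Mbd3cΔN-ab KO. Itgb3bp, a centromere protein, rose 5.30-fold and 3.03-fold in the same mutants, and Itgb1bp2, a muscle chaperone, 2.96-fold in Mbd3abc KO.

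Mbd3abc KO and Mbd3cΔN-ab KO were set against each other directly with edgeR's quasi-likelihood test on recovered reads of the 5413 genes listed in both tables with the same transcript. Of the 45 members among them 3 were called, 1 higher in Mbd3abc KO and 2 lower, the same share as the 6.67% of all genes tested (3.23% higher and 3.44% lower). Adam9 averaged 714 ± 126 normalized reads in Mbd3abc KO and 365 ± 6.29 in Mbd3cΔN-ab KO (SD, n = 2 each), a log2 difference of 0.97 with edgeR adjusted p = 0.0329. Adamts14 averaged 261 ± 22.1 and 421 ± 18.4 in these mutants (edgeR log2 difference -0.69, adjusted p = 0.0455), and Itga3 311 ± 25.5 and 478 ± 31.1 (-0.62, adjusted p = 0.0497). Each of the 3 calls ended when any 1 of the 4 mutant libraries was left out. Itgb1 differed by 0.71 on the log2 scale (edgeR adjusted p = 0.0526), which missed the threshold. Frem2 and Lama1 had libraries that overlapped between the 2 mutants, with log2 differences of -0.44 and -0.28 (edgeR adjusted p = 0.300 and 0.430). Lamb3, Plod2 and Adamts3 could not enter, as their transcripts differ between the tables. Nor could the 23 members called in Mbd3abc KO and not in Mbd3cΔN-ab KO, or the 5 called only in the latter of these 2. The contrast covers genes called in both mutants and does not measure the full difference between them.

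Direction in the 2 long tables went with transcript GC content, over all called genes and less so over the members. In Mbd3abc KO the median GC content was 44.9% in all called genes that were higher and 55.2% in those that were lower, and in the members it was 51.1% and 55.2%. In Mbd3cΔN-ab KO it was 44.1% and 55.7% over all called genes, and 49.6% and 56.3% in the members. The share of called genes that were higher in a member's GC class (of 20) summed over members to 23.5 in Mbd3abc KO, where 30 were higher, and to 17.5 in Mbd3cΔN-ab KO, where 22 were. In Mbd3abc KO only 13.3% of called genes in the class of Lamb3 and Col17a1 were higher, 11.6% in that of Itgb4 and 7.88% in that of Col7a1. In the classes of Plod2, Itgav and Adam10, which were also higher, the shares were 97.0%, 97.0% and 98.8%. In that of Lama1, which was lower, it was 22.2%, and in that of Frem2 29.4%. The part of GC content in these results was not tested.

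**Figure D4:**
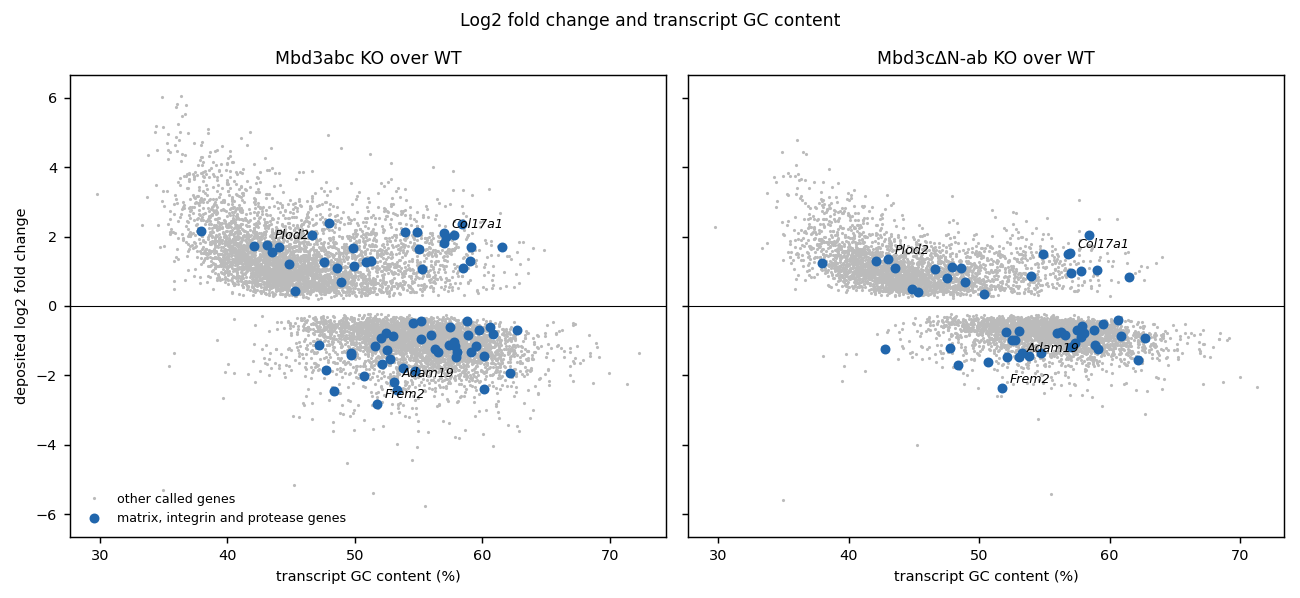
Deposited log2 fold change (y axis) against GC content of the transcript in percent (x axis) for the members described (blue) and all other called genes (grey), in Mbd3abc KO and Mbd3cΔN-ab KO over WT. Higher genes lie mostly at low GC content, Plod2 among them, while Col17a1 is higher at a GC content where most called genes were lower.

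Other facts of the libraries bear on these values. Mbd3 itself was 2.61-fold lower in Mbd3ab KO, 13.0-fold in Mbd3abc KO and 5.57-fold in Mbd3cΔN-ab KO, and not listed in Mbd3c KO. Total reads ran from 0.485 to 1.38 times those of the first WT library in the mutants, and the second WT library had 1.59 times. Absolute totals are unknown. Of all genes tested, 52.1% were called in Mbd3abc KO, 41.5% in Mbd3cΔN-ab KO, 3.35% in Mbd3ab KO and 0.353% in Mbd3c KO. Counts of markers stand beside these shares. Of 8 embryonic stem cell markers, Klf4, Sox2 and Tdgf1 were higher and Esrrb and Pou5f1 lower in Mbd3abc KO, with Pou5f1 at 2816 and 4647 normalized reads, against 10868 and 11648 in WT. Klf4 was higher and Esrrb and Pou5f1 were lower in Mbd3cΔN-ab KO. Epithelial markers moved with the anchoring genes: 7 of 8 were called in each of Mbd3abc KO and Mbd3cΔN-ab KO, all higher, 3 in Mbd3ab KO and 1 in Mbd3c KO. Their summed level over called genes was 13238 and 14493 in Mbd3abc KO, against 7936 and 7702 in WT, 11851 and 9476 in Mbd3cΔN-ab KO, against 7627 and 7406, and 1176 and 747 in Mbd3ab KO, against 329 and 359. These sums hold only called genes, all of them higher, so their rise was fixed in advance, and the genes summed differ between mutants. Cdh1 made up most of the sum in Mbd3abc KO and Mbd3cΔN-ab KO, where it rose 1.47-fold and 1.24-fold. Of 8 trophectoderm markers 4 were higher in Mbd3abc KO, with Eomes 6.47-fold higher and Cdx2 not listed. There were 3 higher and 1 lower in Mbd3cΔN-ab KO and in Mbd3ab KO, and 1 higher in Mbd3c KO. The epithelial and trophectoderm lists share Krt8 and Krt18, so their counts are not separate. In Mbd3c KO the called gene of both lists was Krt18, and in Mbd3ab KO Krt8 and Krt18 were counted in both. Of 9 endoderm markers Dab2 and Srgn were higher in Mbd3abc KO and Srgn in Mbd3cΔN-ab KO, both at low levels (summed 63.8 and 127 in Mbd3abc KO, against 23.2 and 11.4). Gata4, Gata6 and Sox17 were listed in no table. Of 10 fibroblast markers Thy1 was higher and Col1a1 lower in both, and Col1a2 and Col3a1 were listed in none. Of 5 mesoderm markers Hand1, at 2.41 and 2.54 in Mbd3cΔN-ab KO, against 9.77 and 22.6, was the only one called. The part of these cell states in the values above was not tested.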

How the data were processed

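Per the submitters' processing notes, reads were processed with TopHat2, HOMER and DESeq2 on mm10. Versions and settings were not given in the sources used here. For each mutant the authors deposited 1 table, holding genes called in it, with a normalized signal per library (HOMER reads scaled to equal totals, per the file headers), a log2 fold change with its SE, a p-value with its adjusted value, and a Wald score, which was not used. Columns were assigned to groups, not replicate numbers. There were 443 genes for Mbd3ab KO, 38 for Mbd3c KO, 8141 for Mbd3abc KO and 6000 for Mbd3cΔN-ab KO. Those not under an adjusted p of 0.05 were dropped: 1, 0, 9 and 11 in that order. Each value was a whole multiple of its library's step (within 0.006, 100% of values), which gave whole reads. WT reads were equal in all tables for each transcript that 2 tables shared. Normalized reads are those reads divided by the authors' size factors, recovered from the deposited mean level, and compare within a table only. Genes tested, recovered from p and adjusted p, numbered 13201, 10761, 15622 and 14429.

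The main results are the authors' DESeq2 calls at 0.05. Folds are ratios of group means, given where both means exceeded 3 reads, while the deposited log2 fold changes are shrunken. The members and lists were chosen with earlier results of these data known. Genes named are the 4 markers Lamb3, Itgb4, Frem2 and Adam19, those called in Mbd3ab KO or Mbd3c KO, in 3 or more tables or in opposite directions, for each role in the other 2 tables the 2 called genes with the highest and the 2 with the lowest log2 fold change, up to 4 called per direction in the direct contrast, and per list and table the called gene that rose and that fell most. Other genes were named after their values were seen. The direct contrast used edgeR 4.0.16 (quasi-likelihood, TMM) on 6 libraries, and refits used limma 3.58.1, DESeq2 1.42.0 and edgeR in R 4.3.3, adjusted with the number of genes tested. The fits were also run on simulated data in which most genes were unchanged. The lists refitted here hold called genes, so that run cannot show how the fits behave on them. Refits take their spread from called genes only. GC content is the mean over GENCODE transcripts tied to the listed RefSeq transcript, or else to the symbol, and motifs were searched in Python 3.11.15. The values of 2 called genes are not reported here; counts include them.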

Additional observations from a re-analysis of the deposited data

How the results depend on the processing

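No direction of the 139 member calls reversed in edgeR with TMM. The DESeq2 refits, with or without 1 library left out, kept the authors' size factors. As no called gene had libraries that overlapped, these refits could not reverse a direction. The number of calls depended on the setting. In Mbd3ab KO, of 14 calls, 8 passed at an adjusted p of 0.01, 4 above the median mean level (1 higher, 3 lower), 9 in a DESeq2 refit, 2 with edgeR and TMM (0 higher, 2 lower), and 0 with edgeR and the authors' size factors or with limma at a pseudocount of 1 or of 5, where all 14 had an unadjusted p under 0.05. With 1 library left out the count ran from 0 to 9, and was 0 without either WT library, where 8 and 10 had an unadjusted p under 0.05. In Mbd3c KO the call of Lamb3 gave way to 0 above the median level, and to 0 in both DESeq2 refits, both edgeR refits and both limma fits, with an unadjusted p under 0.05 in all but edgeR with TMM (0 members). With 1 library left out its count ran from 0 to 1. In Mbd3abc KO, of 71 calls, 29 were above the median level (8 higher, 21 lower), and with 1 library left out there were 42 to 46 without a mutant library and 30 to 34 without a WT library. In Mbd3cΔN-ab KO, of 53 calls, 30 were at least 2-fold, 21 above the median level (7 higher, 14 lower), and with 1 library left out there were 24 to 35 without a mutant library and 12 to 14 without a WT library. Counts in other refits of these 2 tables were within 1.5 times, from 55 to 70 and from 38 to 53. Above the median level, 47.4% of all called genes were higher in Mbd3abc KO and 43.4% in Mbd3cΔN-ab KO. With 1 library left out, fewer of all listed genes were called than the authors called, in each of the 4 comparisons. Some refits without a mutant library of Mbd3ab KO or Mbd3c KO called more of all listed genes than the full DESeq2 refit. Whether the loss is particular to the members was not tested. Of all called genes in Mbd3ab KO, 232 passed at an adjusted p of 0.01. The DESeq2 refit called 239 of all its listed genes, edgeR with TMM 32, and edgeR with the authors' size factors or limma 0. TMM, computed over the listed genes alone, moved their median log2 fold change by -0.33 in Mbd3ab KO and -2.21 in Mbd3c KO.

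The direct contrast gave 6 calls with DESeq2, 0 at an adjusted p of 0.01, 0 with the 4 mutant libraries alone (12 at an unadjusted p under 0.05), and 0 to 2 with 1 library left out. The cause of these changes was not tested. A DESeq2 refit with a local dispersion trend, chosen after seeing the data, called 14, 0, 64 and 52. No paired analysis was possible because the columns carry no replicate numbers. Folds of genes with few reads, such as Adam8, Adamts3, Thbs4 and Timp4, are limited by depth.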
